A study of Mus musculus with 6 samples.

Results

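The 30 genes described here are the cholesterol synthesis and handling genes of the mouse spinal cord: 18 enzymes that make cholesterol, 4 genes that control that synthesis and 8 genes that move, export or store sterols. They were chosen by name from the 32285 genes in the count matrices, and every one of the 30 was found. The data are single-nucleus RNA sequencing libraries, made with 3′ chemistry from frozen lumbar spinal cord. All animals carried the SOD1G93A transgene, a mutant human SOD1 that gives mice a disease like amyotrophic lateral sclerosis, on a C57BL/6 background, and all were 110 days old. In 3 libraries the animals were PHD1+/+, and in the other 3 they were PHD1-/-, lacking PHD1, the oxygen-sensing prolyl hydroxylase encoded by Egln2. The labels speak of littermate pairs. No library came from animals without the SOD1G93A transgene, so the levels below are those of the diseased cord, and the labels do not name the promoter of the transgene or the deleted stretch of Egln2.

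Cholesterol does not cross the blood-brain barrier in useful amounts, so the central nervous system makes its own, and myelin holds most of it. Synthesis runs from acetyl-CoA through mevalonate to squalene, which is closed into lanosterol and trimmed to cholesterol. The transcription factor SREBP2, encoded by Srebf2, switches the enzymes on when membrane sterol is low: its escort Scap carries it to the Golgi for cleavage, and Insig1 holds both back when sterol is plentiful. Glia export surplus sterol through Abca1 and Abcg1, lysosomes release it through Npc1 and Npc2, and Soat1 turns it into esters for storage.

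After filtering, 41906 nuclei remained, 5208 to 9153 per library, and 34779 of them, 83.0%, fell in clusters that could be named as 1 of 15 cell classes from marker genes. The pathway genes were kept out of the genes used to cluster. Replicate 1 of both genotypes stood apart: it used another list of cell barcodes, and its nuclei had median depths of 1363 and 1365 unique molecular identifiers (UMIs), against 2291 to 2902 in the other 4 libraries. These 2 libraries shared 86 barcodes, 1.3% of the smaller library, and no other pair shared more than 14. The doublet caller marked 0 and 1 nuclei in them, so doublets remain there. Egln2 was measured at 16.4 to 29.6 CPM (UMIs of the gene per 1000000 UMIs) in the PHD1+/+ libraries and at 9.04 to 10.1 CPM in the PHD1-/- libraries, without overlap (p = 0.1 by an exact permutation test, two-sided, which cannot go lower with 3 libraries a group).

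The synthesis enzymes had their highest summed level in Schwann cells, the myelinating glia of the nerve roots, followed by newly formed oligodendrocytes. Levels are CPM, taken over all UMIs of that class in that library, and 6 values in a row are PHD1+/+ replicates 1, 2 and 3 and then PHD1-/- replicates 1, 2 and 3. In Schwann cells the 18 enzymes summed to 1194, 1667, 1328, 1015, 1777 and 1902 CPM (mean 1481, SD 353). In newly formed oligodendrocytes, which have left the precursor state and begin to myelinate, the sums were 897, 1545, 1237, 1067, 1285 and 1239 CPM (mean 1212, SD 218). Mature oligodendrocytes followed with 917, 958, 866, 1095, 831 and 833 CPM (mean 917, SD 101). Schwann cells were above newly formed oligodendrocytes in 5 of 6 libraries. Newly formed oligodendrocytes were above mature ones in 4 of 6, the exceptions being both replicate 1 libraries. The classes at the top thus do not part in every library. Mature nuclei of replicate 1 lay mostly in other clusters than those of the other libraries. An oligodendrocyte cluster with Anln and Enpp6 among its leading genes was given no class name and is left out of the mature class. It held 1 and 5 nuclei of the replicate 1 libraries and 260 to 472 of each other library. The part of this make-up in the exceptions was not tested. In Schwann cells the summed Schwann markers were at 8908 and 8915 CPM in the replicate 1 libraries and at 23766 to 30837 CPM in the others. Oligodendrocyte markers there were at 5865 to 8318 CPM. In newly formed oligodendrocytes the neuron markers were at 3977 and 2194 CPM in replicate 1 and at 264 to 590 CPM in the others. The part of RNA from other cells in these sums was not tested.

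Astrocytes, which supply neurons with cholesterol, reached 879, 708, 1123, 614, 920 and 943 CPM (mean 864, SD 181) and exceeded mature oligodendrocytes in 3 of 6 libraries. Cholinergic neurons, the class to which motor neurons belong, had 602, 909, 1328, 664, 749 and 690 CPM (mean 824, SD 268) from 158 nuclei in all. A cluster of 42 nuclei with the cholinergic markers Slc5a7, Slc18a3 and Prph among its leading genes was given no class name and is left out. Oligodendrocyte precursors lay within a narrow band of 690 to 794 CPM (mean 748, SD 34.8). Inhibitory neurons averaged 505 CPM (SD 40.0), excitatory neurons 430 (SD 42.2) and microglia, the resident immune cells, 401 (SD 117). Microglia therefore stood lowest of these classes, although their replicate 1 values, 618 and 451 CPM, were above the 310 to 348 CPM of the other 4 libraries. Neighbours from astrocytes down to precursors did not keep their order, with astrocytes above cholinergic neurons in 3 of 6 libraries and cholinergic neurons above precursors in 2 of 6.

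**Figure D1:**
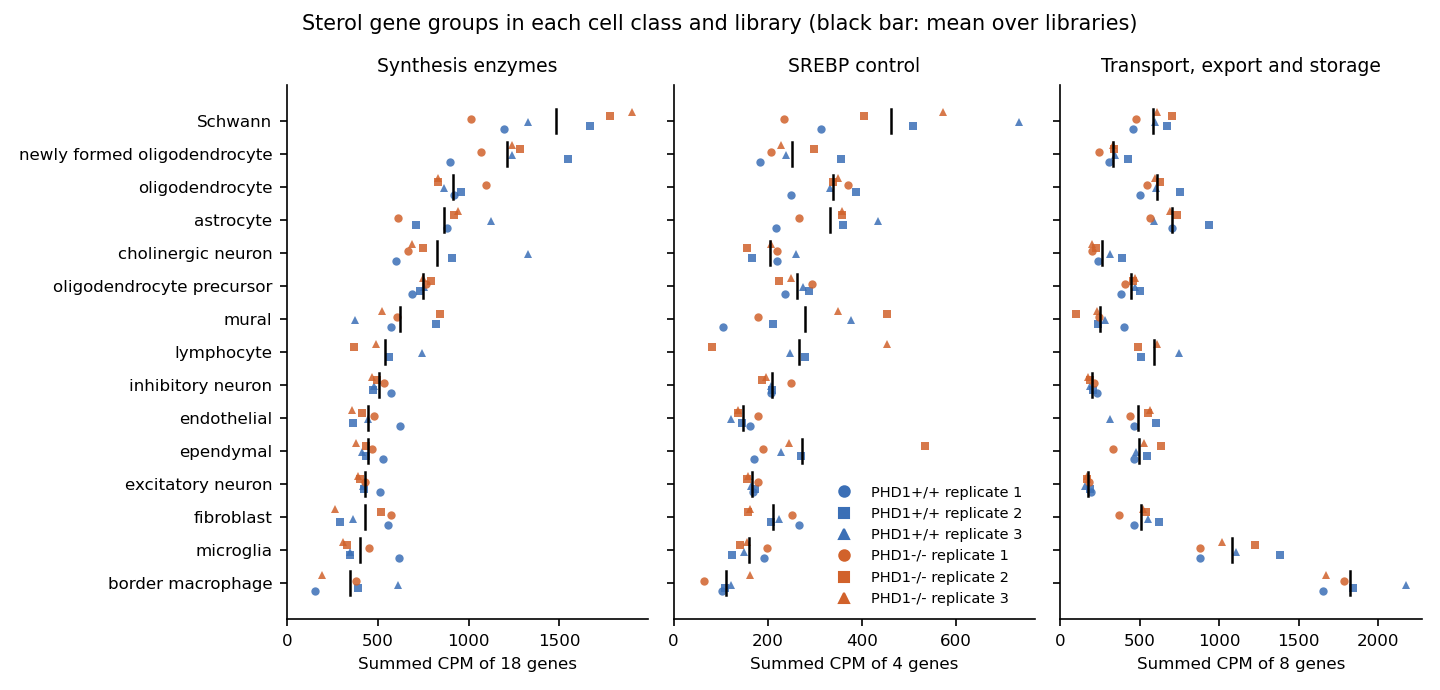
Summed CPM of the 18 cholesterol synthesis enzymes in each cell class (classes sorted by mean), 1 point per library with at least 10 nuclei of the class, blue for PHD1+/+ and orange for PHD1-/-, with the marker shape giving the replicate and a black bar for the mean over libraries. Schwann cells (mean 1481 CPM) and newly formed oligodendrocytes (1212 CPM) lie at the top and microglia (401 CPM) near the bottom, and the genotypes are mixed within each class.

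Gene by gene, over the 13 classes with at least 10 nuclei in every library, 9 of the 18 enzymes had their highest mean in Schwann cells and 7 in newly formed oligodendrocytes. The remaining enzymes were Dhcr7, highest in cholinergic neurons, and Ebp, highest in mature oligodendrocytes. In the mevalonate branch, Hmgcs1, which makes HMG-CoA, was at 141, 353, 163, 139, 406 and 401 CPM in Schwann cells. Its mean there was 267 CPM, against 153 in newly formed oligodendrocytes, 109 in mature ones, 90.4 in astrocytes, 54.6 in microglia and 42.5 in excitatory neurons. Idi1, which isomerises isopentenyl diphosphate, averaged 69.5 CPM in Schwann cells and 13.3 in excitatory neurons, and Fdps, which makes farnesyl diphosphate, 120 and 27.8 CPM. Pmvk, the kinase that follows Mvk, ranged from 13.5 CPM in border macrophages to 55.9 in Schwann cells.

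At the squalene steps, Fdft1, which joins farnesyl units into squalene, was at 152, 119, 163, 139, 239 and 192 CPM in Schwann cells, above its level in mature oligodendrocytes in every library. Sqle, the squalene epoxidase, averaged 120 CPM in Schwann cells, 90.7 in newly formed oligodendrocytes, 29.7 in excitatory neurons and 18 in microglia. Lss, which closes the ring to lanosterol, was low throughout, with its highest mean of 30.3 CPM in newly formed oligodendrocytes. Of the enzymes after lanosterol, Cyp51, the lanosterol demethylase, was at 154 CPM in newly formed oligodendrocytes, 127 in Schwann cells, 104 in mature oligodendrocytes and 100 in astrocytes, against 26.8 in microglia. Msmo1, which removes the methyl groups at carbon C4 with Nsdhl and Hsd17b7, was nearly as high in astrocytes (176 CPM) as in newly formed oligodendrocytes (185 CPM). Ebp, the sterol isomerase, departed from this order, with 40.1 CPM in mature oligodendrocytes and 34.2 CPM in microglia, above its 24.4 CPM in Schwann cells.

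Across the 13 classes, the rank correlation of each enzyme with the sum of the others had a median of 0.753. It was highest for Cyp51 and Msmo1 (0.934 each) and lowest for Ebp (0.214) and Pmvk (0.247). Among the other members the pattern most like that of the enzymes was that of Insig1 (0.940), ahead of Srebf2 (0.780) and Stard4 (0.676). The 8 transport genes had a median of 0.0192, with Soat1 at −0.462. These coefficients are descriptions over classes that share libraries and differ in depth.

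**Figure D2:**
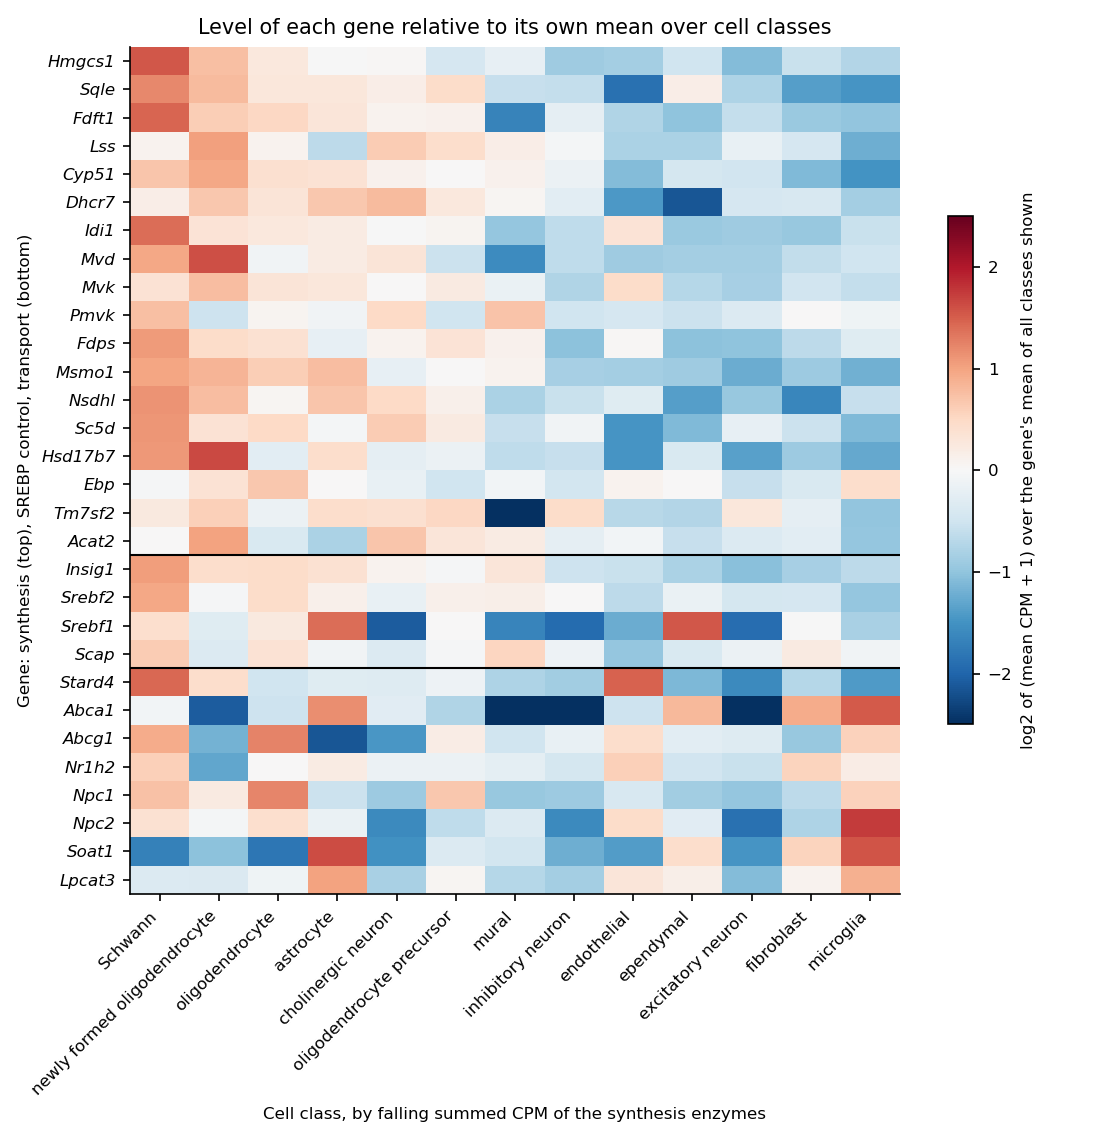
Heat map of the 30 genes (rows, grouped by role) in the 13 classes with at least 10 nuclei in every library (columns); colour is the log2 ratio of the gene's mean CPM in the class to its own mean over the classes, and values beyond the ends of the scale take the end colour. Most synthesis enzymes are high in Schwann cells and newly formed oligodendrocytes, and Abca1, Soat1 and Npc2 are high in microglia.

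Since the enzymes shared a pattern over classes, the stretches just upstream of their genes are shown for members of each role. RefSeq promoters (GRCm38.p6, 250 bases before to 50 after the start) were at hand for 24 of the 30 genes. The stretches below end before the annotated gene, run 5′ to 3′ on the gene's strand, and carry in capitals every CCAAT box (CCAAT, or ATTGG on the other strand) and every sterol regulatory element (TCACNCCAC, either strand). Hmgcs1 lies at chr13:119690379-119708260 on the plus strand, and its stretch at chr13:119690101-119690350. Hsd17b7, at chr1:169949535-169969241 on the minus strand, has its stretch at chr1:169969242-169969455. Insig1, at chr5:28071363-28078662 on the plus strand, has its stretch at chr5:28071162-28071362. Abca1, the exporter, which did not follow the enzymes, is shown for contrast, with its stretch at chr4:53159896-53160145 on the minus strand.
Hmgcs1: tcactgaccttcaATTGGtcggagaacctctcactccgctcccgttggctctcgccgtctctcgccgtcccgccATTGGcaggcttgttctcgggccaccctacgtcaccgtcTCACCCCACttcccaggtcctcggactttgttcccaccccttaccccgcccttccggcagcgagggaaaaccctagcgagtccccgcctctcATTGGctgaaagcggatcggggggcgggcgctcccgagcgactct
Hsd17b7: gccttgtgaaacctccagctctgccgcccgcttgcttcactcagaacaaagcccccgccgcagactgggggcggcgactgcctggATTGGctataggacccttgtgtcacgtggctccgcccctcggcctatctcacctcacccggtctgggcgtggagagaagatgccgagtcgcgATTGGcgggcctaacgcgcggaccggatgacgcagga
Insig1: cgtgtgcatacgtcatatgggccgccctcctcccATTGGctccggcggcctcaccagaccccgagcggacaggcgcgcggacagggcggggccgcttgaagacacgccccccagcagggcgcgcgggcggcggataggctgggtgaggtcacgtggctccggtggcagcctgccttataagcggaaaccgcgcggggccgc
Abca1: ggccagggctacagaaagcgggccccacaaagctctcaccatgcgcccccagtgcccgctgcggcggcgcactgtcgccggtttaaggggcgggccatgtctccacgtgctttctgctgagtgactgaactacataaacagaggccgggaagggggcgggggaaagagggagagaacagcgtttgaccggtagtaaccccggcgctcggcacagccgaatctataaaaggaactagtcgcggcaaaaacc
The Hmgcs1 stretch holds 3 CCAAT boxes and 1 sterol regulatory element, that of Hsd17b7 2 CCAAT boxes, that of Insig1 1, and that of Abca1 neither motif. Over the promoters, a CCAAT box was found in 14 of 15 synthesis enzymes, 93.3%, against 41.1% of 27025 genes. It was also found in 3 of 4 control genes and in 3 of 5 transport genes. The GC box GGGCGG was found in 14 of 15 synthesis enzymes, against 38.2% of all genes. It was also found in 4 of 4 control genes and in 4 of 5 transport genes, Abca1 among them, so it does not set the enzymes apart. The sterol regulatory element was found in 1 of 15 synthesis enzymes, against 1.44%. The E-box CACGTG was found in 3 of 15, against 8.09%. With 2 of 4 control genes and 1 of 5 transport genes, Abca1, also holding it, the E-box does not set the enzymes apart either. All motifs were searched on both strands, and a match describes the letters in these windows only.

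Along the oligodendrocyte lineage, newly formed cells stood above their precursors for most enzymes, and Mvd and Hsd17b7 differed most. Mvd, which makes isopentenyl diphosphate, was at 21.6, 49.7, 71.8, 25.8, 44.8 and 24.0 CPM in newly formed oligodendrocytes. In precursors it was at 7.66, 1.81, 5.94, 14.2, 12.2 and 7.28 CPM, so every newly formed value was above every precursor value and the ratio of means was 4.84. Hsd17b7, the ketosteroid reductase of the demethylation complex, was at 54.0, 71.7, 47.9, 43.0, 56.0 and 79.9 CPM in newly formed cells and at 10.2, 16.3, 2.97, 14.2, 22.7 and 30.9 CPM in precursors, a ratio of 3.62. It was low again in mature oligodendrocytes, at 11.1, 18.9, 9.51, 19.9, 15.5 and 14.5 CPM, a ratio of newly formed to mature of 3.94. The Hsd17b7 values of newly formed cells thus overlapped those of neither neighbouring stage.

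Of the 18 enzymes, 17 had a higher mean in newly formed oligodendrocytes than in precursors, against 38.8% of 12226 genes counted, and 6 were higher in every one of the 6 libraries, against 8.91% of genes. These 6 were Mvd and Hsd17b7 with Hmgcs1 (ratio 2.27), Cyp51 (1.97), Msmo1 (1.77) and Acat2 (1.64). Acat2, which condenses acetyl-CoA at the entry of the pathway, was at 64.8, 55.2, 31.9, 34.4, 56.0 and 63.9 CPM in newly formed cells and averaged 31.1 CPM in precursors and 19.0 in mature cells; the mouse paralog Acat3 could share some of its reads. The median log2 ratio of newly formed to precursor was 0.56 over the enzymes and −0.20 over all genes counted. Against mature oligodendrocytes, 15 of 18 had a higher mean in newly formed cells (42.3% of 11604 genes), and Hsd17b7, Mvd (3.40), Acat2 (2.68) and Mvk (1.39) were higher in every library (10.7% of genes). Mature cells were above precursors in every library for Pmvk, Msmo1, Hmgcs1, Fdft1 and Ebp (21.2% of genes). Newly formed cells came from 320 nuclei in all, with median depths of 1749 to 5747 UMIs, against 875 to 1782 in mature oligodendrocytes.

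Abca1, Abcg1 and Npc1 went the other way at the newly formed stage. Abca1, the main cholesterol exporter, was at 21.6, 19.3, 23.9, 17.2, 33.6 and 28.0 CPM in newly formed cells, against 28.1, 63.3, 80.2, 46.2, 75.1 and 74.6 in precursors and 49.9, 84.1, 71.1, 43.1, 104 and 79.7 in mature cells. It was lower than both neighbours in every library, with ratios of 0.391 and 0.332. Npc1, the lysosomal membrane transporter, was at 97.3, 152, 104, 77.4, 85.9 and 124 CPM in newly formed cells and at 131, 303, 231, 167, 226 and 225 CPM in mature ones, also lower in 6 of 6 libraries, as it was against precursors (ratio 0.737). Abcg1, the partner exporter, averaged 19.1 CPM in newly formed cells and 106 in mature ones, below the mature level in every library and below precursors in 5 of 6. Soat1, the esterifying enzyme, was lower in newly formed than in precursor cells in every library (ratio 0.613), and averaged 14.1 CPM in mature cells. Npc2 did not follow Npc1: it averaged 78.2 CPM in newly formed cells and 52.0 in precursors, higher in 5 of 6 libraries, and 108 in mature cells. Stard4 had a higher mean in newly formed cells than in precursors (21.4 against 14.1 CPM), but was higher in 3 of 6 libraries. In all, 3 of the transport genes were lower in every library in newly formed cells than in precursors, where 20.5% of genes were. Abca1, Abcg1 and Npc1, with Srebf2 and Scap, were lower than in mature cells in every library, where 19.7% of genes were.

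**Figure D3:**
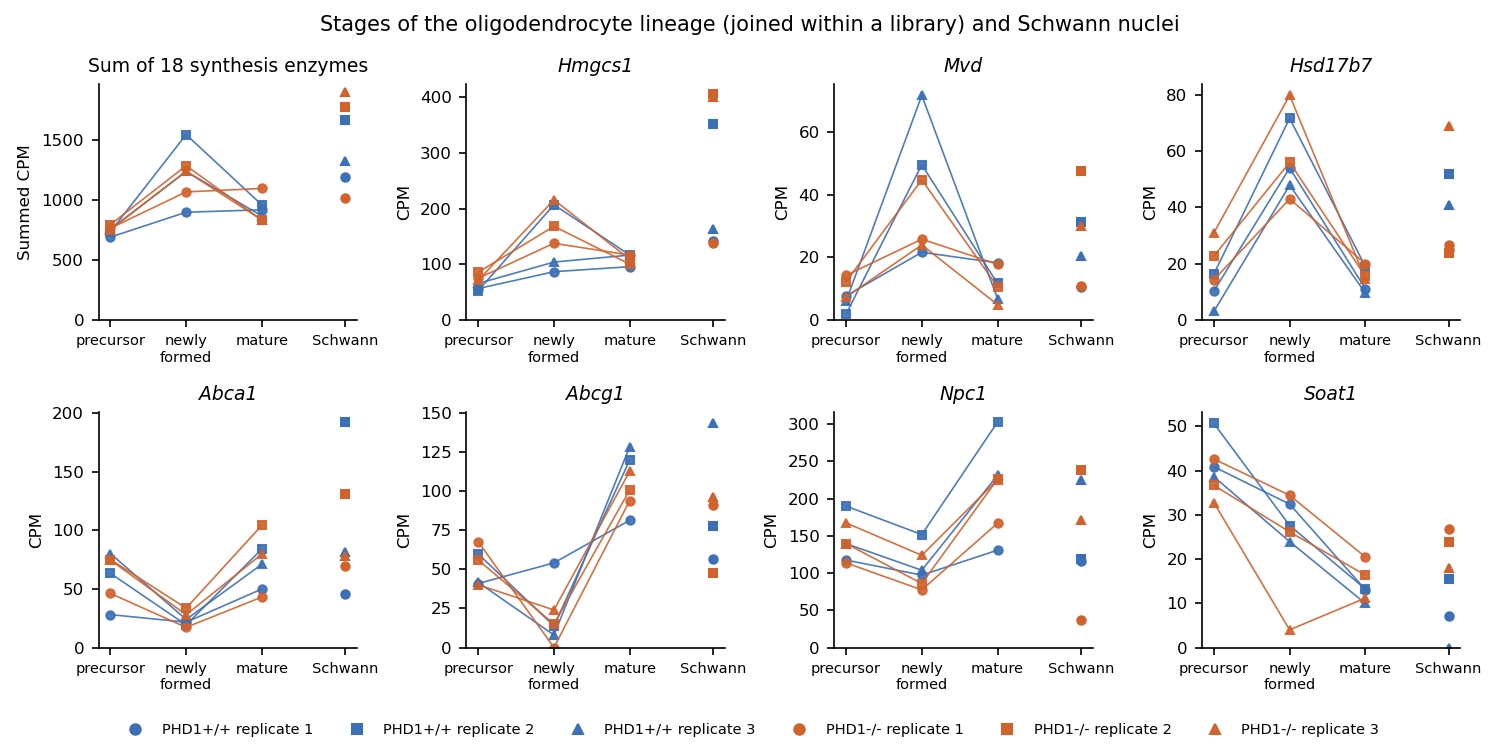
CPM of members in oligodendrocyte precursors, newly formed and mature oligodendrocytes, with 1 line per library, and in Schwann cells as separate points (blue PHD1+/+, orange PHD1-/-, marker shape for the replicate). Hsd17b7 and Mvd peak at the newly formed stage in every library, and Abca1 is lowest there in every library.

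Schwann cells exceeded mature oligodendrocytes for 15 of 18 enzymes by mean (62.2% of 12238 genes were higher in Schwann cells), and for 6 in every library (16.2% of genes). These 6 were Hsd17b7 (ratio 2.65), Hmgcs1 (2.45), Idi1 (2.24), Nsdhl (2.15), Fdft1 (1.93) and Acat2 (1.31). The median log2 ratio was 0.65 over the enzymes and 0.21 over all genes counted. Stard4, a soluble carrier that moves cholesterol between membranes, was at 14.1, 46.7, 20.4, 32.1, 83.5 and 65.9 CPM in Schwann cells, above oligodendrocytes in every library with a ratio of 4.09. Lpcat3, which remodels phospholipids, was lower in Schwann cells in every library. The Schwann class held 962 nuclei, but only 35 in PHD1+/+ replicate 3 and 64 in PHD1-/- replicate 2, with median depths of 756 to 1255 UMIs.

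The 4 control genes had their highest sum in Schwann cells (mean 462 CPM), followed by oligodendrocytes (339) and astrocytes (333), with excitatory neurons (167) and microglia (160) near the bottom. Srebf2 was at 124, 244, 388, 139, 203 and 276 CPM in Schwann cells and at 120, 174, 169, 189, 159 and 151 CPM in mature oligodendrocytes, so the ranges overlap. Its lowest mean among these glia and neurons was 59.4 CPM in microglia. Insig1, the sterol-dependent brake, averaged 102 CPM in Schwann cells, 68.0 in mature and 67.1 in newly formed oligodendrocytes, 64.3 in astrocytes and 23.3 in excitatory neurons. Srebf1, whose product drives mostly fatty acid synthesis, had another distribution: 101 CPM in ependymal cells, which line the central canal, and 35.0, 145, 153, 43.6, 90.2 and 76.4 CPM in astrocytes. It averaged 39.7 CPM in mature oligodendrocytes and 8.20, 8.17 and 7.13 CPM in excitatory, inhibitory and cholinergic neurons.

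The transport and storage genes were highest in macrophages. Their sum was 1653, 1840, 2171, 1785 and 1669 CPM in border macrophages (5 libraries, since PHD1-/- replicate 2 held fewer than 10 nuclei of them). In microglia it was 881, 1380, 1102, 877, 1226 and 1015 CPM (mean 1080, SD 199), against 702 in astrocytes, 604 in mature oligodendrocytes and 175 in excitatory neurons. Microglia were low in the enzymes: 0 of 18 had a higher mean than in mature oligodendrocytes, although 67.4% of genes counted did, and 14 enzymes were lower in every library, against 17.6% of genes. The transport genes were split. Soat1, Abca1, Lpcat3 and Npc2 were higher in microglia in every library, as were 36.6% of genes. Abcg1 and Npc1 were lower in microglia in every library, as were 17.6% of genes.

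Each of these genes had its own distribution. Abca1 was at 169, 456, 337, 144, 391 and 320 CPM in microglia and at 179, 372, 201, 155, 288 and 213 CPM in astrocytes, with overlapping ranges, and at 686 CPM in border macrophages. In excitatory and inhibitory neurons it averaged 6.02 and 7.02 CPM, and in cholinergic neurons 85.1 CPM, above excitatory neurons in every library. Npc2, the soluble lysosomal partner of Npc1, was at 251, 360, 255, 248, 300 and 240 CPM in microglia and averaged 108 CPM in mature oligodendrocytes. Soat1 was at 153, 187, 144, 125, 157 and 198 CPM in astrocytes and at 152, 181, 167, 129, 181 and 116 CPM in microglia. In mature oligodendrocytes Soat1 lay at 9.96 to 20.5 CPM, below every astrocyte and microglial value. The exporters parted between glia: Abcg1 was at 81.2, 120, 128, 93.7, 101 and 113 CPM in mature oligodendrocytes and at 13.1, 10.9, 6.00, 16.4, 0 and 9.34 CPM in astrocytes. Astrocytes thus had Abca1 with little Abcg1, and mature oligodendrocytes had both.

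Compared with oligodendrocytes, astrocytes were higher in every library for Hsd17b7, Nsdhl, Srebf1, Soat1, Abca1 and Lpcat3 (26.6% of all genes were) and lower in every library for Lss, Scap, Npc2, Abcg1 and Npc1 (18.5% were). Lpcat3 had its highest level there, at 149, 150, 120, 109, 114 and 98.5 CPM. Nr1h2, which encodes the sterol sensor LXR-beta, had a mean of 8.76 CPM in newly formed oligodendrocytes and 63.6 in border macrophages. Stard4 averaged 44.8 CPM in endothelial cells, close to its Schwann level, and 4.46 in excitatory neurons.

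Among neurons, inhibitory cells were above excitatory cells by mean for 27 of the 30 genes, where 53.6% of all genes were. In every library 8 genes were higher in inhibitory neurons (16.9% of genes were): Hsd17b7, Nsdhl, Msmo1, Fdft1, Insig1, Srebf2, Stard4 and Npc2. The median log2 ratio was small, 0.18 over the 30 genes and 0.01 over all genes. Cholinergic neurons exceeded excitatory neurons by mean for all 18 enzymes (44.1% of genes were higher), with a median log2 ratio of 0.92 against −0.07. Pmvk, Idi1, Lss, Sc5d, Dhcr7 and Acat2 were higher in every library (9.21% of genes were). Idi1, for example, was at 25.4, 18, 28.2, 19.9, 23.3 and 37.6 CPM in cholinergic and at 15.6, 12, 14.2, 9.78, 15 and 13.3 CPM in excitatory neurons, without overlap. Per neuronal cluster, pooled over libraries and so without an error, the enzymes summed to 284 to 609 CPM in 16 excitatory clusters and to 415 to 1066 CPM in 10 inhibitory clusters. The top value, 1066 CPM from 506 UMIs, was that of a cluster of 128 nuclei led by Pkd1l2, Myo3b and Pkd2l1, the last a channel gene that marks neurons in contact with cerebrospinal fluid.

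Within astrocytes the enzymes differed between a pair of clusters. A mitochondria-rich astrocyte cluster of 357 nuclei, led by Gfap, was given no class name and is left out. A cluster of 372 nuclei with A2m, Aqp4 and Myoc among its leading genes had more Gfap, the filament gene of fibrous and reactive astrocytes (1565 CPM), than the cluster of 1060 nuclei with Slc7a10 among its own (514 CPM). In the A2m, Aqp4 and Myoc cluster the 18 enzymes summed to 801, 515, 513, 534, 517 and 548 CPM, against 913, 807, 1194, 674, 1029 and 1033 CPM in the Slc7a10 cluster. The sum was lower in the A2m, Aqp4 and Myoc cluster in 6 of 6 libraries, with a ratio of means of 0.607. PHD1+/+ replicate 3 held only 16 nuclei of that cluster, and PHD1-/- replicate 2 only 22. Insig1 was at 0, 16.2, 28.5, 25.1, 27.2 and 27.4 CPM there (17 UMIs in all) and at 93.8, 66.0, 77.2, 96.4, 70.3 and 82.4 CPM in the Slc7a10 cluster (188 UMIs), a ratio of 0.256 with no overlap. Cyp51 was at 43.7, 68.9, 57.0, 31.4, 54.5 and 36.5 CPM, against 87.5, 120, 144, 72.3, 137 and 131 CPM, also without overlap (ratio 0.422).

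By mean, 16 of the 18 enzymes were lower in the A2m, Aqp4 and Myoc cluster, the exceptions being Mvk and Acat2, and the median log2 ratio was −0.60, against 0.10 over all genes. Cyp51, Mvd and Tm7sf2 were lower in every library, 16.7% of the enzymes against 6.88% of 12811 genes, although Mvd (3 UMIs) and Tm7sf2 (2 UMIs) rest on few counts in that cluster. The exporter Abca1 did not follow, with 281 CPM there and 218 in the Slc7a10 cluster, higher in 4 of 6 libraries. Soat1 averaged 149 and 163 CPM and was lower in 5 of 6. Depth was alike, with median UMIs per nucleus of 1208 to 2975 and 1141 to 2578, and the summed oligodendrocyte markers overlapped (872 to 2914 and 737 to 3551 CPM). The summed neuron markers also overlapped (1758 to 2860 and 1376 to 2390 CPM), and their part in the result was not tested.

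In microglia 2 clusters differed in the level of Soat1 in each library compared. The cluster of 698 nuclei with Apobec1 and Csf3r among its leading genes had less P2ry12, a marker of resting microglia, than the cluster of 1178 nuclei with Siglech and Selplg among its own (412 against 1018 CPM). PHD1+/+ replicate 1 held 3 and 2 nuclei of these clusters and is left out, so 5 values follow. Soat1 was at 268, 306, 388, 257 and 151 CPM in the Apobec1 and Csf3r cluster and at 116, 124, 160, 129 and 100 CPM in the other, higher in 5 of 5 libraries (ratio 2.18). Npc1 was at 154, 245, 155, 157 and 233 CPM against 154, 114, 79.8, 127 and 136 CPM, higher in 5 of 5 (ratio 1.54), by less than 1 CPM in PHD1+/+ replicate 2. These 2 of the 27 members counted were higher in every library, where 4.62% of 11821 genes were, and so few do not set the list apart. Abca1 averaged 428 and 343 CPM and was higher in 4 of 5 libraries, and the enzymes summed to 392 and 315 CPM, also in 4 of 5. PHD1-/- replicate 1 holds only 16 and 19 nuclei of these clusters, with 5 and 2 UMIs of Soat1 and 2 and 1 UMIs of Npc1. Of the endothelial markers, Flt1 alone was high in the Apobec1 and Csf3r cluster (263 CPM against 28.9), while the other 7 averaged 0 to 4.88 CPM there.

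A further pair of clusters of the oligodendrocyte lineage could be compared in the 4 libraries of replicates 2 and 3. A cluster of 5281 mature oligodendrocyte nuclei with Ptgds and Il33 among its leading genes was set beside a cluster of 1480 nuclei with Anln and Enpp6 among its own, which was given no class name because Enpp6 marks newly formed cells. The enzymes summed to 904, 840, 823 and 791 CPM in the Ptgds and Il33 cluster and to 1077, 967, 931 and 879 CPM in the other, lower in 4 of 4. Insig1 went the opposite way, at 72.1, 72.9, 65.9 and 93.1 against 33.7, 43.7, 41.0 and 28.7 CPM, higher in 4 of 4 (ratio 2.07). Sqle (58.0 against 89.2 CPM), Mvk (13.8 against 28.0), Hmgcs1 (107 against 134), Lss, Dhcr7, Mvd, Nsdhl and Sc5d were lower in every library, 8 enzymes where 28.7% of 11164 genes were lower, and Fdps was higher (60.7 against 42.7 CPM), where 28.5% of genes were. Soat1 was lower in 4 of 4 (12.5 against 24.7 CPM), and Abca1 higher (79.8 against 65.8 CPM). The clusters also differed in depth, with median UMIs per nucleus of 1448 to 1662 against 2742 to 3221, and in transcripts of 82 ribosomal protein genes, at 8568 to 9649 against 4527 to 5174 CPM. The part of depth in these differences was not tested.

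**Figure D4:**
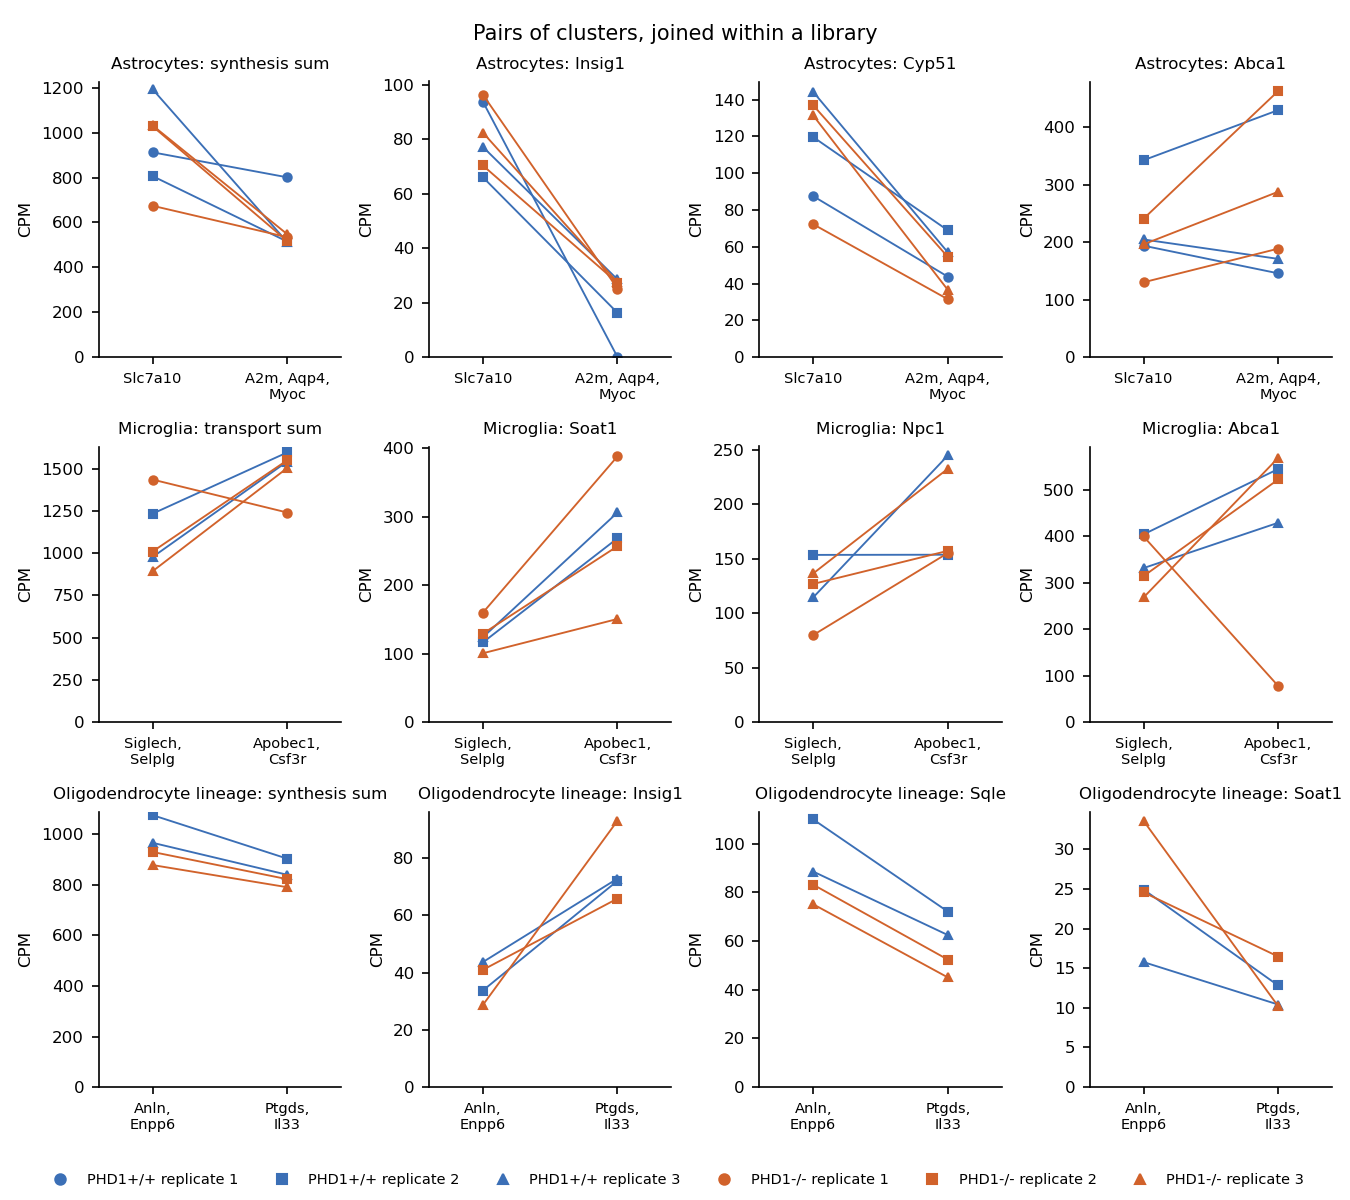
CPM per library in pairs of clusters of astrocytes, of microglia, and of the oligodendrocyte lineage (where the Anln and Enpp6 cluster has no class name), with lines joining the clusters of a library (blue PHD1+/+, orange PHD1-/-). Insig1, Cyp51 and the enzyme sum are lower in the A2m, Aqp4 and Myoc cluster of astrocytes in all 6 libraries, and Soat1 and Npc1 are higher in the Apobec1 and Csf3r cluster of microglia in all 5.

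Between the genotypes, none of the 30 genes passed the test in any class tested. The comparison asks whether loss of PHD1 alters these genes in the SOD1G93A cord, in all nuclei and in 9 classes. Cholinergic neurons, ependymal cells, fibroblasts and mural cells were not tested. The test was edgeR's quasi-likelihood test on summed counts, with Benjamini-Hochberg adjustment over all genes. In all nuclei 0 of 19303 genes passed (0%), 96 of them (0.497%) had an unadjusted p under 0.05, and DESeq2 called none either. In the 9 classes edgeR again called 0 genes (0% in each). The share of genes with an unadjusted p under 0.05 was 0.871% in oligodendrocytes, 1.19% in precursors, 1.26% in newly formed oligodendrocytes, 0.597% in Schwann cells and 0.575% in astrocytes. It was 0.592% in microglia, 1.34% in endothelial cells, and 0.402% and 0.403% in excitatory and inhibitory neurons. About 5% of genes would fall under 0.05 if none differed, so the p-values of this fit ran high. The small shares thus do not show that the genotypes are alike. Of 215 tests of members, 1 had an unadjusted p under 0.05, and the lowest adjusted p was 0.999. With the replicate number as a block the lowest adjusted p of a member was 0.335, and in replicates 2 and 3 alone 0.773. The standard errors of the log2 fold changes had a median of 0.30 and ran from 0.14 to 0.76. They belong to the fit without the block, in which variation between replicate numbers counts as error. They set the size of change that this fit could show, and a limit of the libraries themselves was not tested.

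As a list, the members had medians near 0. In all nuclei the median log2 fold change (PHD1-/- over PHD1+/+) was −0.11 over the 30 genes and −0.01 over all genes, and 22 of 30 were negative, as were 51.8% of all genes. Without PHD1+/+ replicate 1 alone the median was 0.000647 in all nuclei, and in excitatory neurons and microglia it turned from negative to 0.0442 and 0.0512. In replicates 2 and 3 of both genotypes it was −0.03 in all nuclei. Hmgcs1 in all nuclei was at 73.6, 70.9 and 66.6 CPM in PHD1+/+ and 60.2, 65.1 and 69.3 CPM in PHD1-/- libraries, which overlap (log2 fold change −0.12, SE 0.14). In oligodendrocytes, where all 30 genes were tested, the median was −0.02, and in astrocytes, where 21 passed the filter on low counts, −0.08. Medians elsewhere ran from −0.19 in microglia (21 genes) to −0.01 in Schwann cells (16 genes), against −0.01 to −0.04 for all genes of those classes. Negative values were found for 17 of 30 members in oligodendrocytes (52% of genes), 12 of 23 in precursors (53%), 10 of 13 in newly formed cells (52.8%) and 8 of 16 in Schwann cells (55.1%). They were found for 13 of 21 in astrocytes (51.7%), 15 of 21 in microglia (54%), 21 of 30 in excitatory (52.8%) and 18 of 30 in inhibitory neurons (51.7%). In oligodendrocytes, precursors and Schwann cells these shares were near those of all genes. The sign of the median also turned with a single library left out in astrocytes (−0.19 to 0.10), oligodendrocytes (−0.05 to 0.07) and Schwann cells (−0.11 to 0.16). In replicates 2 and 3 the astrocyte median was 0.01, with 8 of 20 members negative. The 1 member testable in endothelial cells was positive, where 53.6% of genes were negative.

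Without passing the test, 10 member values of the 185 tests in classes did not overlap between genotypes. In astrocytes Lpcat3 was at 149, 150 and 120 CPM in PHD1+/+ and 109, 114 and 98.5 CPM in PHD1-/- libraries, the latter all lower (log2 fold change −0.40, SE 0.25). It was the 1 member of 21 to part there, where 2.55% of genes were lower without overlap. In excitatory neurons Sqle was at 34.2, 37.9 and 28.8 against 25.0, 25.6 and 26.6 CPM (−0.38, SE 0.17), and Scap was also lower without overlap, where 2.16% of genes were. In microglia Ebp was at 43.8, 33.5 and 36.4 against 29.7, 31.2 and 30.8 CPM, where 2.26% of genes were lower in this way. Mvk, Srebf1 and Abcg1 in inhibitory neurons (2.28% of genes), Tm7sf2 in oligodendrocytes (3.4%) and Scap in precursors (2.15%) complete the 9 that were lower.

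Hmgcs1 in oligodendrocyte precursors was the 1 that was higher, at 56.2, 52.5 and 65.3 CPM in PHD1+/+ and 74.6, 85.5 and 71.0 CPM in PHD1-/- libraries (log2 fold change 0.39, SE 0.27), where 3.6% of genes were higher without overlap. No member was higher in this way in oligodendrocytes (2.19% of genes were), astrocytes (2.36%), microglia (2.8%), or excitatory (2.1%) or inhibitory neurons (2.19%). None parted in either direction in Schwann cells (2.23% of genes lower and 2.39% higher), newly formed oligodendrocytes (2.72% and 3.98%), endothelial cells (2.95% and 2.33%) or all nuclei (2.02% and 1.98%). Npc2 in newly formed oligodendrocytes was the member with an unadjusted p under 0.05, at 64.8, 130 and 95.8 CPM against 51.6, 67.2 and 59.9 CPM, which overlap. Its log2 fold change was −0.78 (SE 0.33), with adjusted p = 1.00 by edgeR. Sc5d in microglia (−1.02, SE 0.47) and Srebf1 in astrocytes (−0.70, SE 0.44) had wider errors.

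**Figure D5:**
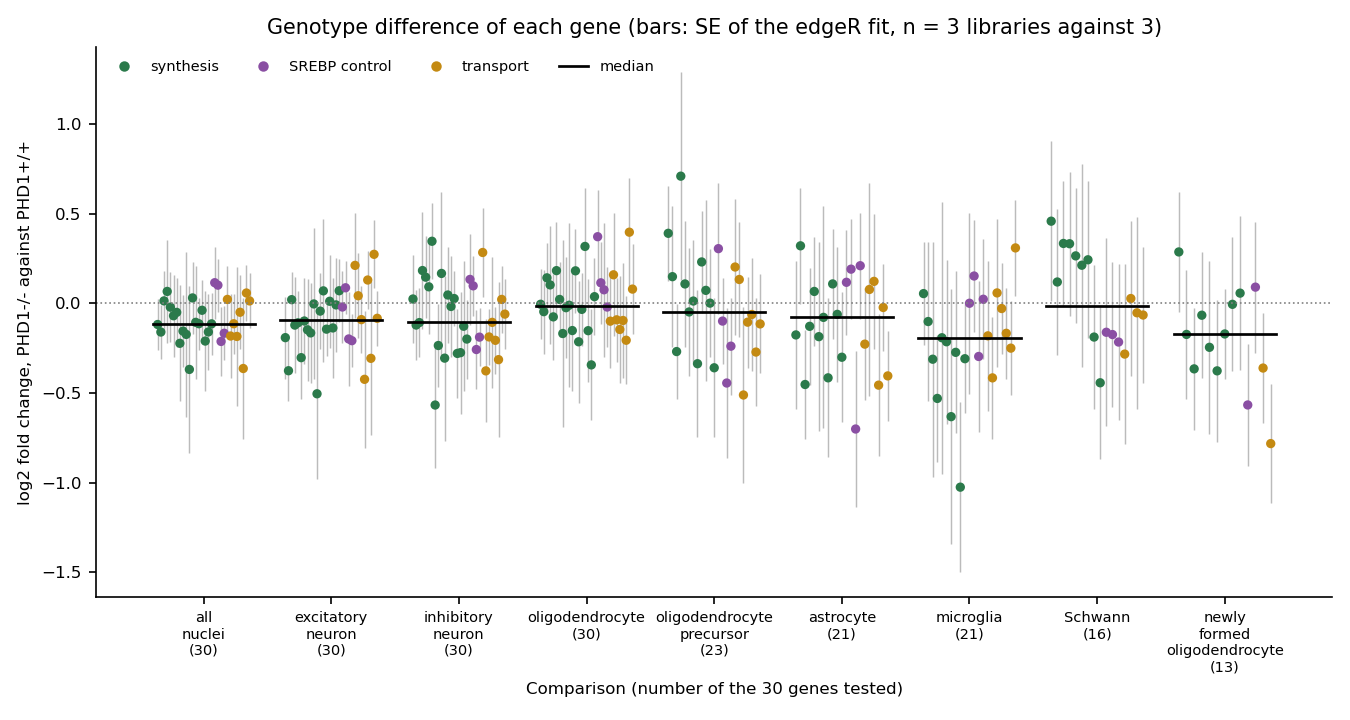
Log2 fold change of each member (PHD1-/- over PHD1+/+) by class, with points coloured by role, grey bars for the standard error and a black bar for the median, from edgeR on counts summed per library. The estimates scatter around 0 and no member passed the adjusted threshold of 0.05.

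The genotype effect in astrocytes was tested directly against that in oligodendrocytes, with the library as a block. By edgeR 0 of 12839 genes passed and 243 had an unadjusted p under 0.05, none of them among the 30 members. The members' median difference in log2 fold change (astrocytes minus oligodendrocytes) was −0.08, against 0.03 for all genes, and the farthest from 0 was Srebf1 at −0.71 (SE 0.40).

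A list of 34 further sterol genes (receptors, lipoprotein genes, oxysterol enzymes, esterases) gave no call by edgeR in any class tested without the block. In microglia Lipa, the lysosomal esterase that frees cholesterol, was the 1 of 23 tested with an unadjusted p under 0.05: it was at 67.1, 135 and 84.3 CPM in PHD1+/+ and 49.5, 59.2 and 66.8 CPM in PHD1-/- libraries, without overlap (log2 fold change −0.74). In precursors it was Abca2, a transporter of late endosomes, at 79.2, 61.5 and 59.4 against 39.1, 40.2 and 36.4 CPM (−0.82, SE 0.29). Both were picked out after their values were seen. Apoe, the main lipoprotein of the central nervous system, averaged 8239 CPM in microglia, 7676 in border macrophages and 4976 in astrocytes. In inhibitory neurons Apoe passed with the replicate number as a block (log2 fold change −0.64, adjusted p = 0.00577 by edgeR), against −0.77 (SE 0.84) without it. Summed astrocyte markers in these nuclei were at 255, 159 and 139 CPM in PHD1+/+ and 184, 109 and 125 CPM in PHD1-/- libraries. Summed microglial markers were at 216, 119 and 106 against 152, 101 and 87.5 CPM. Both were thus lower in PHD1-/- at each replicate number, and the part of glial RNA in the Apoe call was not tested.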

How the data were processed

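Nuclei were isolated from frozen lumbar spinal cord and sequenced as 3 PHD1+/+ and 3 PHD1-/- libraries. The deposited values are raw UMI counts per gene and nucleus, 1 matrix per library; per the submitters' processing notes the authors used Cell Ranger 5.0.2, Scanpy 1.8.1 and mm10, whereas the matrix headers, per the file headers, name Cell Ranger 5.0.1. The counting of intronic reads and the strand setting are not given in the sources used here.

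Nuclei were kept if they had 500 UMIs or more, 300 genes or more and mitochondrial UMIs below 5%, and doublets marked by Scrublet in each library were removed. Scanpy 1.11.5 clustered them on 2000 variable genes without the 64 pathway genes (30 principal components, 15 neighbours, Leiden resolution 1), and neurons and immune nuclei again on 1500. Of 70 clusters, 48 were named, each from at least 3 detected markers; the ratios that part excitatory (2) from inhibitory (8) neurons were set after the clusters were seen. An Anln and Enpp6 cluster of oligodendrocytes and a mitochondria-rich cluster of astrocytes stayed unnamed. Within each library the counts of a class were summed, and classes with at least 10 nuclei in every library were tested with edgeR 4.0.16 (TMM, filterByExpr, quasi-likelihood, R 4.3.3), with DESeq2 1.42.0 as an alternative. The code was tested on simulated counts. Contrasts of classes or clusters carry no test, since the classes come from the same nuclei; they count genes of at least 5 CPM on average and add 1 CPM before log2 ratios.

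Same-numbered libraries of the genotypes deviated together in every class checked (each pair's correlation above 0.1). PHD1+/+ replicate 2 and PHD1-/- replicate 3 did so too, in Schwann cells at 0.440, against 0.263 for the replicate 2 libraries of both genotypes. The check thus sets replicate 1 apart but does not show that same-numbered libraries are littermate pairs. The block on the replicate number was run beside the main fit as an alternative. P-values measure the spread between libraries. Members and lists were chosen with earlier results of these data known; the newly formed oligodendrocyte and Schwann comparisons were added after the data were seen. Every member could be named by rule; of the other pathway genes, those with the highest CPM in a class or past the threshold. Alternatives were another test, no filter, the block, replicates 2 and 3 alone, at least 1000 UMIs, mitochondrial UMIs left out of totals, each library left out, and the 2 unnamed clusters added; the last was chosen after seeing the data.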

Additional observations from a re-analysis of the deposited data

How the results depend on the processing

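None of the 215 member tests passed under any of 2388 alternatives, which says nothing about their direction, and the 16 summed levels moved by less than 1 SD over libraries under all 144. The members' median fold change moved under 5 of 111 alternatives, each with 1 library left out. Counts of genes called, 0 by edgeR in each of 10 comparisons, moved under 15 of 112 alternatives. Without the filter on low counts they were 3 in Schwann cells, 3 in astrocytes, 2 in microglia, 1 in newly formed oligodendrocytes and 4 in oligodendrocyte precursors. With the replicate number as a block they were 30 in excitatory neurons, 62 in inhibitory neurons, 6 in oligodendrocytes, 2 in astrocytes, 2 in precursors and 1 in microglia. This block changed the call of no member of the 30. In replicates 2 and 3 alone they were 1 each in astrocytes, excitatory neurons and microglia, and DESeq2 gave 1 in astrocytes. The cause was not tested. With each library left out in turn, the count of called genes stayed at 0 in all 10 comparisons, and the members' median log2 fold change ran from −0.12 to 0.000647 in all nuclei, from −0.12 to 0.0442 in excitatory neurons, from −0.26 to 0.0512 in microglia and from −0.66 to 0.77 in endothelial cells, where 1 library held 11 nuclei. The highest of the first 3 ranges came without PHD1+/+ replicate 1. The median also changed sign in astrocytes (−0.19 to 0.10), oligodendrocytes (−0.05 to 0.07), Schwann cells (−0.11 to 0.16) and precursors (−0.08 to 0.000325). Low counts per class limit the precision, and SDs cover these 6 libraries only.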

Other observations

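Replicate 1 of both genotypes, with its own barcode list and lower depth, also differed in the pathway's genes. Pmvk was higher in both replicate 1 libraries than in all 4 others in 9 of 13 classes, Fdps in 8, Fdft1 and Nr1h2 in 6 each. Npc1 was lower in both in 8 classes, Abca1 and Cyp51 in 7 each, Lss and Nsdhl in 6 each. In oligodendrocytes Fdps, for example, was at 105 and 101 CPM in replicate 1 of PHD1+/+ and PHD1-/-, and at 53.7 to 66.0 CPM in the other 4. The same was true of many genes: in excitatory neurons 36.9% of 12255 genes were higher in both and 33.8% lower. Each genotype holds 1 such library, so the genotype comparisons are balanced over it in number only. The 2 libraries were not alike: mitochondrial UMIs were 0.566% in PHD1+/+ replicate 1 and 0.329% in PHD1-/- replicate 1. The unnamed mitochondria-rich astrocyte cluster held 272 and 59 of their nuclei.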
